A study of Rattus norvegicus with 8 samples.

Results

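The antioxidant and cytoprotective genes Hmox1 (ENSRNOG00000014117), Nqo1 (ENSRNOG00000012772), Sod2 (ENSRNOG00000019048) and Cat (ENSRNOG00000008364) were followed in rat cardiac cells. These 4 genes were taken by Ensembl ID from a table of 21867 genes, and all 4 were among the 13849 genes that passed the filter on low counts. They were chosen with earlier results of these data known. RNA was sequenced from 8 libraries in 4 groups of 2. Cardiac fibroblasts (CFs) were primary cells from neonatal Wistar Kyoto rats, cultured by the paper in medium with 10% fetal bovine serum (FBS). Myofibroblasts (MFs) were derived from them by continuous passaging in medium with 1% FBS. A difference between MFs and CFs cannot be told apart from one of serum level or passaging, and treated cells had been passaged in this way too. The other groups were MFs exposed for 72 h to a direct current of 1 µA/cm2 (1 µA) or 2 µA/cm2 (2 µA) from platinum/iridium electrodes placed in the culture medium. The treated cells were plated on gelatin and, by the labels, kept in standard medium with 10% FBS. The medium and plating of the untreated MFs over these 72 h are not given in the sources used here, and an effect of the current cannot be told apart from one of culture conditions that differed along with it. The study calls the replicates biological and does not say whether they came from separate animals or cultures. P-values measure the spread between these libraries.

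Cells remove reactive oxygen species in steps. The mitochondrial manganese superoxide dismutase encoded by Sod2 turns superoxide into hydrogen peroxide, and catalase, encoded by Cat and kept mainly in peroxisomes, splits hydrogen peroxide into water and oxygen. Nqo1 encodes a quinone reductase of the cytosol that reduces quinones without leaving semiquinone radicals. Hmox1 encodes heme oxygenase 1, the inducible enzyme that breaks heme down to biliverdin, iron and carbon monoxide. Nqo1 and Hmox1 are textbook targets of the transcription factor NRF2, which binds antioxidant response elements (AREs), while Sod2 is known to be induced by inflammatory cytokines through NF-κB.

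Promoter sequences of Nqo1, Sod2 and Cat, the 3 of the 4 genes matched by symbol in the RefSeq promoter table, are shown because these genes differed in how their levels changed. Each sequence holds 250 bases before and 50 bases after the annotated start on assembly GRCr8, written 5′ to 3′ on the strand of the gene, which is the minus strand for all 3. Nqo1 lies at chr19:52220218-52220517, Sod2 at chr1:50050119-50050418 and Cat at chr3:110329477-110329776. The expression tables were built on rn6, so these coordinates belong to the sequences alone. Capitals mark matches on either strand to the TATA box motif TATAAA, the CCAAT box motif CCAAT, the GC box motif GGGCGG or the ARE core TGACNNNGC, and none of these matches overlap in these windows.
Nqo1: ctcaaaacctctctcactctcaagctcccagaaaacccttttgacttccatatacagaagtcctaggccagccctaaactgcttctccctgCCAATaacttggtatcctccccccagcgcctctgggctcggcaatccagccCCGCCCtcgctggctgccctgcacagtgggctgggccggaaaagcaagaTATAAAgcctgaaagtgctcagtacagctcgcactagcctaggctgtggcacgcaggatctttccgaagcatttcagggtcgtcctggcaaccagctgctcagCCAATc
Sod2: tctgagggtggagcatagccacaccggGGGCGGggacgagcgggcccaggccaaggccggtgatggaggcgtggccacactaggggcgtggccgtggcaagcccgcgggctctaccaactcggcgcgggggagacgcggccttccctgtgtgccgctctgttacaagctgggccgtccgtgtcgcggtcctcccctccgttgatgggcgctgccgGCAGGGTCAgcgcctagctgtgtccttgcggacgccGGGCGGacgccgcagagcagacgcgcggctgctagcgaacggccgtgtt
Cat: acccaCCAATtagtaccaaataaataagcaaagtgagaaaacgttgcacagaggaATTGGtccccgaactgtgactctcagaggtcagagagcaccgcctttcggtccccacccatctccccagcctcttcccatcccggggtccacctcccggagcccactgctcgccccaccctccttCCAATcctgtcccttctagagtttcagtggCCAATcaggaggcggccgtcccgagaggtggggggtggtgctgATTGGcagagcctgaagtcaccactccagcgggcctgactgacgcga

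The Nqo1 window held a TATA box from base -59 to -54, counted from the annotated start, together with CCAAT boxes and a GC box. In the Sod2 window there were 2 GC boxes and a match to the ARE core, from -35 to -27 on the strand opposite the gene. This window had 72.0% G and C against a median of 51.7% over 33469 promoters. Cat had 5 CCAAT boxes and no match to the other motifs. Over all promoters of this length, 14.2% held TATAAA, 37.5% CCAAT, 33.1% GGGCGG and 12.1% TGACNNNGC. The AP-1 motif TGANTCA, which 7.33% of promoters hold, was searched as well and was in none of the 3 windows. The Nqo1 window held no match to the ARE core, and sequence upstream of these windows was not searched. An ARE further from the start of Nqo1 or Cat would thus have been missed. No motif for NF-κB was searched in any window. The matches do not show which of these genes NRF2 or NF-κB acts on. A match describes letters only, and binding was not measured.

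The level of a gene is given as counts per 1000000 counts (CPM) after scaling between libraries, and total estimated counts were 26473085 to 37903701 per library. Levels are compared between libraries of 1 gene and not between genes, since CPM does not account for transcript length. A change is the log2 fold change from edgeR's quasi-likelihood test over all 8 libraries, with its standard error (SE), and p-values were adjusted with the Benjamini-Hochberg method over all genes tested. A gene was called where its adjusted p was below 0.05 and its level differed by at least 1 on the log2 scale. Where the libraries of groups are said to lie apart or to overlap, the share of all genes that do the same was not computed. In bulk RNA, fewer cells that express a gene and less of its RNA per cell cannot be told apart.

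Nqo1 was raised in the cells exposed to current. The CF libraries held 28.0 and 16.2 CPM of Nqo1 and the MF libraries 31.9 and 34.9 CPM. At 1 µA the libraries held 1064 and 1086 CPM, and at 2 µA they held 1523 and 264 CPM. All 4 treated libraries lay above all untreated ones, and the lowest of them, 2 µA replicate 2, was still 7.89 times the MF mean. The other treated libraries stood at 31.8, 32.5 and 45.6 times that mean. Nqo1 transcripts made up 0.00315% and 0.00351% of the estimated counts in MFs and from 0.0262% to 0.156% with current.

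**Figure D1:**
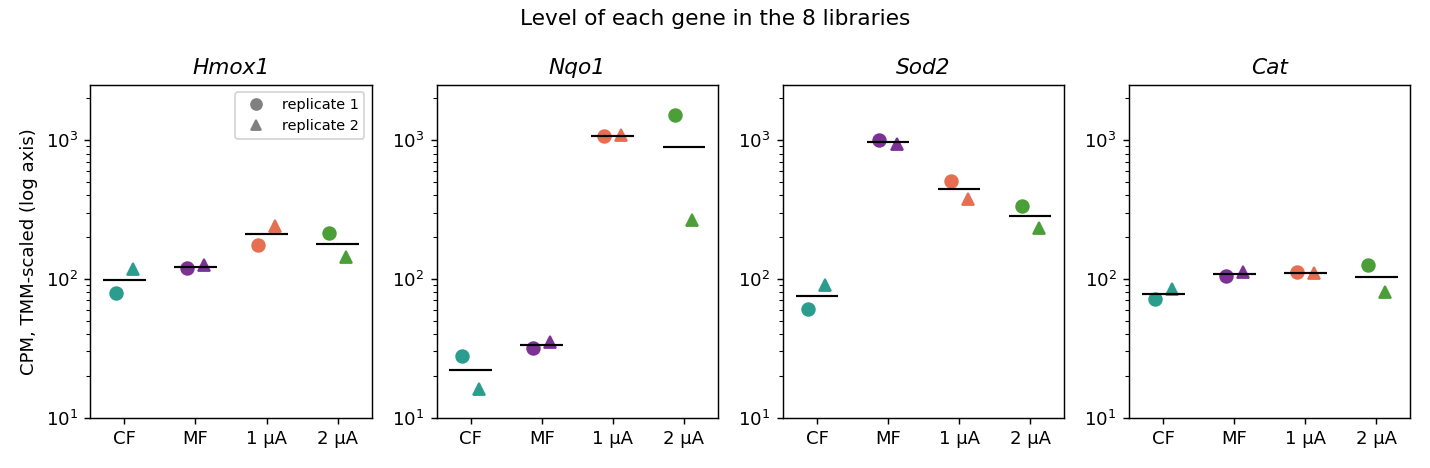
Level of each gene in each library (vertical axis, TMM-scaled CPM on a log axis) by group (horizontal axis). Circles are replicate 1, triangles replicate 2 and black lines the mean of the 2 libraries. Nqo1 lies at 264 to 1523 CPM with current and at most 34.9 CPM without, whereas Sod2 is highest in MFs at 1008 and 939.9 CPM.

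Sod2 was high in MFs, low in CFs and in between after microcurrent. Its level was 60.4 and 90.9 CPM in the CF libraries and 1008 and 939.9 CPM in the MF libraries. With current it was 509 and 374 CPM at 1 µA and 337 and 232 CPM at 2 µA. No treated library reached the range of either untreated group, and the treated libraries lay 1.91 to 4.19 times below the MF mean and 3.07 to 6.73 times above the CF mean.

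Hmox1 differed less. The CF libraries held 78.8 and 119 CPM and the MF libraries 119.9 and 126 CPM, so the higher CF library almost met the lower MF library. The libraries at 1 µA held 176 and 242 CPM and those at 2 µA 213 and 145 CPM. Each treated library was above each untreated one, at 1.18 to 1.97 times the MF mean.

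Cat was the flattest of the 4 genes. It stood at 71.7 and 84.4 CPM in CFs, 104 and 111 CPM in MFs, 113 and 109.7 CPM at 1 µA, and 126 and 81.0 CPM at 2 µA. The treated libraries overlapped with those of MFs, and 2 µA replicate 2 fell within the range of CFs.

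Between MFs and CFs, the comparison that follows differentiation, 1 of the 4 genes was called, and it was higher in MFs. Across all genes 10.4% were called, with 6.36% called higher in MFs. This gene was Sod2, with a log2 fold change of 3.69 ± 0.296 (SE, n = 2 per group) and an adjusted p of 0.00173 from edgeR, a 12.9-fold difference that ranked 171 from the top among the 13849 genes. Cat had a log2 fold change of 0.47, with a 95% interval from -0.01 to 0.94 and an adjusted p of 0.145 from edgeR. For Hmox1 the change was 0.31 with an interval from -0.32 to 0.95, and for Nqo1 it was 0.60 with an interval from -1.08 to 2.28, so these data leave room for differences of over 2-fold in Nqo1 in either direction. Median log2 fold changes were 0.53 over the 4 genes and -0.03 over all genes. The CF libraries differed from each other 1.73-fold in Nqo1 and 1.51-fold in both Hmox1 and Sod2, and the MF libraries at most 1.09-fold in any of the 4.

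In the comparison of both current densities together with MFs, which addresses the effect of treatment, 2 of the 4 genes were called. The share over all genes was 6.76%, with 2.87% called higher and 3.88% called lower. Nqo1 rose by a log2 fold change of 4.87 ± 0.786 (SE, n = 4 against 2), which is 29.3-fold, with an adjusted p of 0.0138 from edgeR. Of the 13849 genes, 25 had a larger fitted increase, and without 2 µA replicate 1 the log2 fold change was 3.99. Sod2 fell by 1.46 ± 0.222 on the log2 scale (SE, n = 4 against 2), to a level 2.75 times lower, with an adjusted p of 0.0115 from edgeR. Hmox1 had a log2 fold change of 0.65 with a 95% interval from 0.09 to 1.22 and was not called (edgeR, adjusted p = 0.111). Cat was at -0.01 with an interval from -0.42 to 0.40, and a 2-fold change lay outside this interval. Both calls were lost when either MF library was left out, with an adjusted p from edgeR of 0.146 or 0.119 for Nqo1 and 0.119 or 0.0890 for Sod2. The lone MF library was then assumed to vary like the other groups. The log2 fold changes were 4.81 or 4.94 for Nqo1 and -1.41 or -1.51 for Sod2. Far fewer genes overall were called in these fits than with all libraries.

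**Figure D2:**
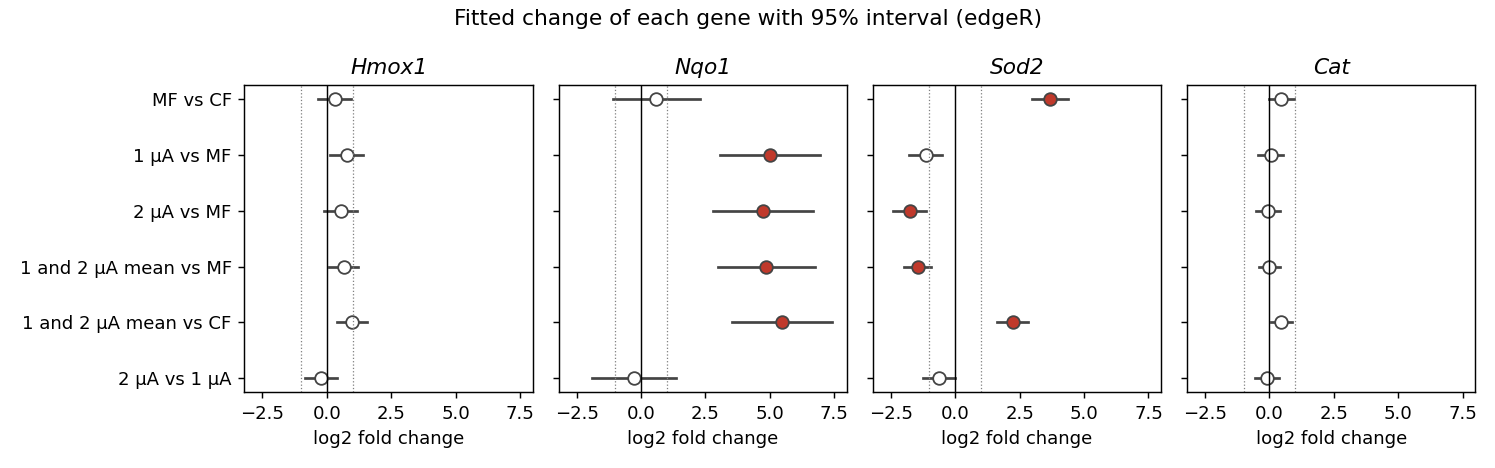
Fitted log2 fold change (horizontal axis) of each gene in 6 comparisons (vertical axis). Points are estimates from edgeR, bars are 95% intervals, filled points were called, and dotted lines mark a log2 fold change of 1 in either direction. Nqo1 lies near 5 in the comparisons of treated cells with MFs and CFs, and Sod2 is positive against CFs and negative against MFs.

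At 1 µA alone, Nqo1 was the 1 of the 4 genes called, with 3.92% of all genes called and 1.65% called higher. Its log2 fold change against MFs was 5.01 ± 0.820 (SE, n = 2 per group), with an adjusted p of 0.0251 from edgeR. This SE takes in the spread of all 4 groups. In a fit of these 2 groups alone the adjusted p of Nqo1 from edgeR was 7.97e-05. Over the other settings with all libraries it ran from 1.07e-08 (DESeq2) to 0.0297 (edgeR, replicate block). Sod2 missed the threshold at 1 µA with a log2 fold change of -1.14 and an adjusted p of 0.0524 from edgeR. Of the 11 other settings with all libraries, 4 called it. These were DESeq2 (adjusted p = 0.000456) and, with edgeR, no filter on low counts (adjusted p = 0.0375), these 2 groups alone (0.00632) and transcript length offsets (0.0499). Sod2 was also called without either CF or either 2 µA library. Without either MF or either 1 µA library it was not called, and its log2 fold change was -0.94 without 1 µA replicate 2. Hmox1 had a log2 fold change of 0.77 (edgeR, adjusted p = 0.130) and Cat one of 0.04 (edgeR, adjusted p = 0.912). Without either 1 µA library or either MF library Nqo1 kept a log2 fold change of 4.94 to 5.07 but was not called. Far fewer genes overall were called in these fits than with all libraries.

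At 2 µA alone, Nqo1 and Sod2 were called, where 4.62% of all genes were called, 1.96% higher and 2.66% lower. Nqo1 had a log2 fold change of 4.74 ± 0.810 against MFs (SE, n = 2 per group, edgeR, adjusted p = 0.0247), and Sod2 one of -1.77 ± 0.274 (SE, n = 2 per group, edgeR, adjusted p = 0.0198). Hmox1 was at 0.54 (edgeR, adjusted p = 0.242) and Cat at -0.06 (edgeR, adjusted p = 0.867). For Nqo1 the value depended on the library, with a log2 fold change of 2.98 without 2 µA replicate 1 and 5.51 without 2 µA replicate 2. The call of Nqo1 was lost without MF replicate 1 or 2 (log2 fold change 4.68 or 4.81, edgeR, adjusted p = 0.198 or 0.154) and without either 1 µA library (log2 fold change 4.74 in both fits, edgeR, adjusted p = 0.0536 or 0.0534). That of Sod2 was lost without MF replicate 1 or 2 (log2 fold change -1.72 or -1.82, edgeR, adjusted p = 0.154 or 0.115) and without 2 µA replicate 2 (log2 fold change -1.53, edgeR, adjusted p = 0.0572). Without MF replicate 1 or 2, only 9 or 11 genes in all were called in this comparison (0.0637% or 0.0778%).

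Between the current densities none of the 4 genes was called by edgeR, by DESeq2 or in any other setting run. Over all genes 0.00722% were called, a single gene. Of the 13849 genes, 72 had an unadjusted p below 0.05 from edgeR's test. That is far below the share of 0.05 that would arise if no gene differed. The p-values of this comparison may thus be too large and its intervals too wide. Sod2 was nearest, with a log2 fold change of -0.63 for 2 µA against 1 µA, a 95% interval from -1.26 to 0.00 and an unadjusted p of 0.0502 (adjusted p = 1 from edgeR's test). Without 2 µA replicate 2 the estimates of Nqo1 (0.50), Hmox1 (0.03) and Cat (0.18) were above 0, and without 2 µA replicate 1 that of Nqo1 was -2.03. The interval for Nqo1 ran from -1.91 to 1.38, for Hmox1 from -0.86 to 0.41 and for Cat from -0.58 to 0.37. A 2-fold difference between the current densities was thus within the interval for Nqo1 and Sod2 and outside it for Hmox1 and Cat. The comparisons of 1 µA and 2 µA with MFs share the MF libraries.

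Against CFs, the healthy control of the study, the treated cells were higher in Nqo1 and Sod2, so that 2 of the 4 genes were called where 7.65% of all genes were called and 4.22% called higher. The log2 fold change of Nqo1 was 5.47 ± 0.813 (SE, n = 4 against 2, edgeR, adjusted p = 0.00868), or 4.59 without 2 µA replicate 1, and that of Sod2 was 2.23 ± 0.259 (SE, n = 4 against 2, edgeR, adjusted p = 0.00448). The treated cells were 4.69 times above CFs in Sod2, and kept 60.5% of the log2 difference between MFs and CFs. Hmox1 had a log2 fold change of 0.97, with an interval from 0.39 to 1.54 and an adjusted p of 0.0438 from edgeR. It passed the p threshold, as did 13.4% of all genes, but stayed just under the fold threshold, and it passed both without CF replicate 2 (log2 fold change 1.30) or without 2 µA replicate 2 (log2 fold change 1.10). It missed the p threshold without any 1 of the other 6 libraries (edgeR, adjusted p = 0.0660 to 0.152) and in a fit of the groups compared alone (edgeR, adjusted p = 0.0890). Cat had a log2 fold change of 0.46 against CFs and was not called (edgeR, adjusted p = 0.133).

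**Figure D3:**
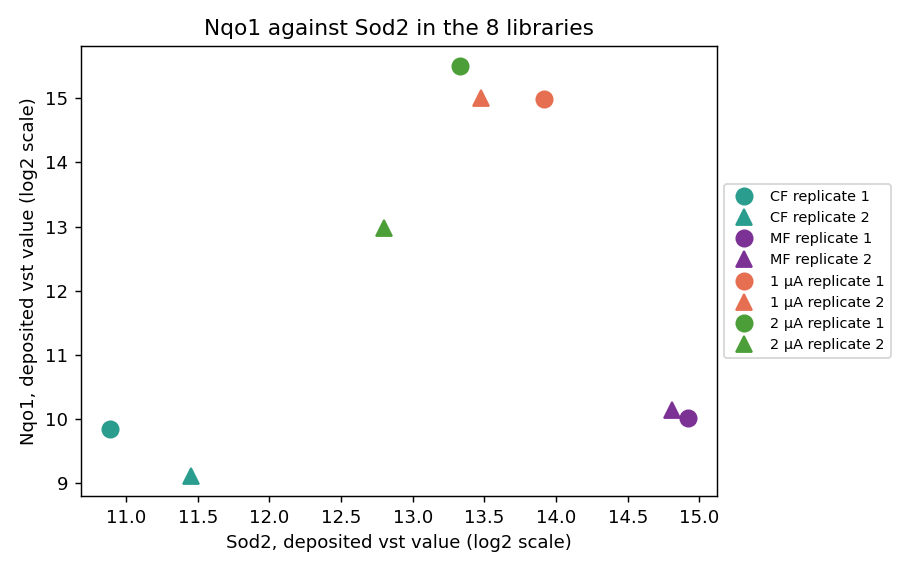
Deposited values after variance stabilisation (vst, log2 scale) of Sod2 (horizontal axis) and Nqo1 (vertical axis), with 1 point per library. CFs are low in both genes, MFs are high in Sod2 alone at 14.8 and 14.9, and the treated libraries combine Nqo1 values of 13.0 to 15.5 with Sod2 values between those of CFs and MFs.

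The treated libraries differed among themselves, and 2 µA replicate 2 held the lowest level of each of the 4 genes. Relative to the mean log2 level of the other treated libraries it was 4.58 times lower in Nqo1, 1.72 times lower in Sod2, 1.44 times lower in Hmox1 and 1.43 times lower in Cat. Over all genes the median of this log2 difference was 0.00, and Nqo1 had the 57th lowest value of 13849, Sod2 the 578th, Hmox1 the 981st and Cat the 1012th. The ratio between the 2 µA libraries was 5.77-fold for Nqo1, larger than that of 99.4% of all genes. In contrast, the 1 µA libraries differed 1.02-fold in Nqo1, less than 87.6% of genes did. For Hmox1 and Sod2 the ratios within the current densities were 1.36 to 1.47, and larger than those of 81.5% to 84.3% of genes. For Cat the ratio was 1.03 at 1 µA, larger than that of 14.8% of genes. At 2 µA it was 1.55, larger than that of 85.1% of genes. Estimated gene by gene, the biological coefficient of variation was 47.0% for Nqo1, 20.1% for Hmox1 and Sod2, and 15.9% for Cat, against 18.4% in common. The trend over all genes gave 16.7% for Nqo1. The quasi-likelihood test does not use these gene-by-gene coefficients but makes its own estimate of the spread of each gene. With both current densities against MFs, the SE was 0.786 for Nqo1 and 0.238 for Hmox1.

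**Figure D4:**
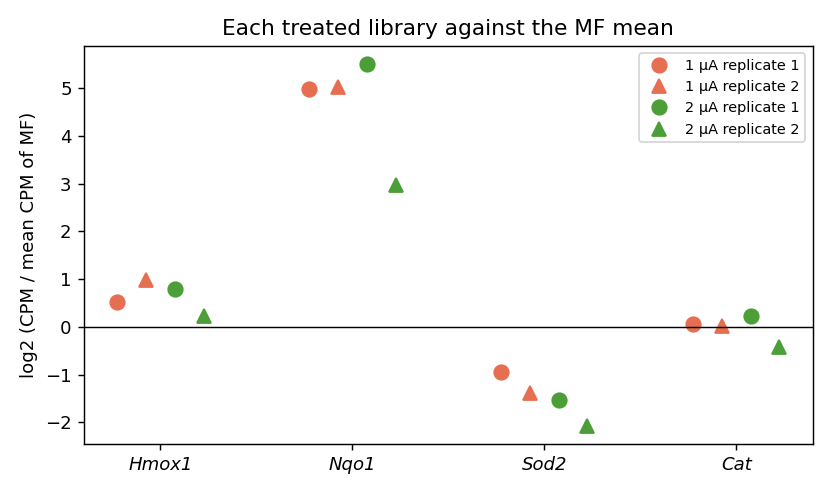
Log2 ratio of the CPM in each treated library to the mean CPM of the MF libraries (vertical axis) for each gene (horizontal axis). The lowest point of each gene is 2 µA replicate 2, at 2.98 for Nqo1, 0.24 for Hmox1, -0.41 for Cat and -2.07 for Sod2.

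Across the 8 libraries, the vst values of Nqo1 and Hmox1 had a Pearson correlation of 0.880, those of Sod2 and Cat of 0.788, and those of Nqo1 and Sod2 of 0.243. These are descriptions over libraries that fall into groups, and the libraries of a group share their condition. By the same measure, the gene closest to Nqo1 was ENSRNOG00000050585 (r = 0.997), which stood at 372 to 410 CPM without and 497 to 612 CPM with current. The gene closest to Sod2 was ENSRNOG00000029191 (r = 0.996), at 1.46 and 3.08 CPM in CFs, 41.9 and 36.3 CPM in MFs and 10.6 to 17.5 CPM with current. Closest to Hmox1 was ENSRNOG00000019266 (r = 0.989) and closest to Cat was ENSRNOG00000050649 (r = 0.974). A correlation of over 0.9 was reached by 318 genes with Nqo1, 656 with Sod2, 163 with Hmox1 and 141 with Cat.

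The second count table, of whole-number counts, gave each gene a near-constant share of its estimated count in every library. The ratio was 0.758 to 0.789 for Nqo1, 0.784 to 0.833 for Sod2, 0.849 to 0.879 for Hmox1 and 0.690 to 0.715 for Cat. In that table Nqo1 had 673 and 704 counts in MFs and 24554, 25942, 37405 and 6292 in the treated libraries, and Sod2 had 22212 and 20134 in MFs and 5819 to 11956 with current. RefSeq lists a pseudogene of Sod2, Sod2-ps1, of 540 bases, and how reads shared with it were assigned was not tested.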

How the data were processed

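RNA from 8 libraries of cultured rat cardiac cells was sequenced as 150 bp paired reads. With salmon, an rn6 transcriptome index and tximeta the authors obtained estimated counts for each gene and deposited them. From these the authors made normalized values, a signal in which counts are divided by DESeq2 factors, and vst values on a log2 scale. They also deposited whole-number counts for 13341 genes, whose pipeline is not given, while the labels name STAR and DESeq2 1.28.1. All per-sample columns were mapped by name.

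Estimated counts were rounded and tested with edgeR 4.0.16 (limma 3.58.1, R 4.3.3), using filterByExpr, TMM scaling, robust dispersions and quasi-likelihood F tests with 1 coefficient per group over all 8 libraries (4 residual degrees of freedom). The SE was the size of the log2 fold change over the square root of F, and intervals are 95%. Replicate pairs differed by more than sampling noise (chi-square per gene of at least 16.2). The code was tested on simulated counts. Figures used Python 3.11.15 and matplotlib 3.10.9.

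The 4 genes, and the other lists, were chosen with earlier results of these data known, and the pairing of IDs with symbols came with that choice. The named genes were these 4 and, for each, the ID with the most similar vst values. Lists of NRF2 regulators and targets, heme handling, peroxide removal, superoxide production and peroxisome genes, and cell type markers, were planned and not analysed, because the tables hold Ensembl IDs only and none matched the RefSeq table of 47357 genes (GRCr8). The labelled cell types were thus not checked against markers.

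Alternatives were another test (DESeq2 1.42.0), other scalings (upper quartile or RLE), other filters (none, or a minimum of 10 counts in each library), the whole-number counts, fits of the compared groups alone, a replicate block, the p threshold alone, and each library left out. Transcript length offsets and scaling by total count were chosen after seeing the data.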

Additional observations from a re-analysis of the deposited data

How the results depend on the processing

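The 24 log2 fold changes (4 genes in 6 comparisons) were recomputed under 11 other settings and without each library in turn, and no called change turned its direction. Other than Sod2 at 1 µA against MFs and Hmox1 with current against CFs, no call changed under the settings that kept all libraries. Sod2 at 1 µA against MFs, not called at -1.14, was called with no filter on low counts (-1.14), with only the groups compared (-1.14), by DESeq2 (-1.15) and with transcript length offsets (-1.16). Hmox1 with current against CFs was called with total count scaling (1.03), and with the p threshold alone (0.97). The cause was not tested.

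Leaving out 1 library gave log2 fold changes against MFs of 4.94 to 5.07 at 1 µA, 2.98 to 5.51 at 2 µA and 3.99 to 5.26 for both in Nqo1, and of -1.38 to -0.94, -2.07 to -1.53 and -1.60 to -1.34 in Sod2. Hmox1 with current against CFs ranged from 0.72 to 1.30. Of these 192 values, 15 lost a call and 6 gained one, and against MFs the fewest genes overall were called when an MF library was left out. Nqo1 and Sod2 against CFs, and Sod2 between MFs and CFs, were called in every such fit.

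With the replicate block, the change with current against MFs was 4.72 for Nqo1 and -1.47 for Sod2, and no call of the 4 genes changed. Its adjusted p from edgeR was 0.0769 for Sod2 at 1 µA against MFs and 0.0617 for Hmox1 with current against CFs. Same-numbered libraries of different groups had deviations correlated from -0.261 to 0.328. These correlations rest on a single difference per group and cannot decide whether the numbers pair the libraries. With 2 libraries per group, calls rest on the spread that all groups share in the fit.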
